A study of Mus musculus with 40 samples.

Results

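The regions described here held reporter-positive fragments at both stages of hemogenic endothelium, HE1 and HE2, of a blood differentiation series. No positive fragment was listed for them at its other stages, and they are called HE-only regions below. Fragments of all 40 libraries that overlapped by 1 bp or more were merged into 75060 regions, of which 63070 held at least 1 fragment from a reporter-positive gate. HE-only regions were chosen by these measured fragments: at least 1 positive fragment at HE1 and at least 1 at HE2, with replicates pooled, and none at the other 3 stages. There were 3366 of them, 5.34% of the regions positive at any stage and 21.2% of the 15880 regions positive at both HE1 and HE2. A lack of listed positive fragments at the other stages does not show that a region was inactive there. Only 532 HE-only regions (15.8%) had a reporter-negative fragment at those stages. This membership is a description of the libraries and carries no test.

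The study screened open-chromatin fragments, cut out by Tn5 transposase and pooled from all stages, in mouse HM-1 embryonic stem (ES) cells of strain 129/ola. Each fragment was placed before an HSP68 minimal promoter and a Venus-YFP gene and was integrated at the HPRT locus, which is not functional in HM-1 cells and was repaired by the integration. Pools of transfected and selected cells, not clones, were differentiated in serum and sorted as ES cells, hemangioblasts (HB, with FLK1), HE1 (with KIT and TIE2 but no CD41), HE2 (with all 3 of these) and hematopoietic progenitors (HP, with KIT and CD41 but no TIE2), each split by YFP into Negative, Low, Medium and High gates. Every combination of the 5 stages and 4 gates had 2 replicates, and the 4 gates of a stage in a replicate are called a sort. Low, Medium and High are the positive gates. The stage in which a fragment was active need not be the stage from whose chromatin it was cut. The lists hold no measure of the sorting markers, so the identity of the sorted cells was not checked here.

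Hemogenic endothelium is the part of the endothelium from which blood cells emerge. It carries the endothelial programme of vessel-wall receptors, junction proteins and ETS-family and SOX-family transcription factors, and it passes to a blood programme led by RUNX1 when CD41 appears and endothelial markers such as TIE2 are lost. Enhancers are stretches of DNA that bind such factors and raise transcription from a promoter. ETS factors recognise a GGAA core, AP-1 and TEAD factors act downstream of growth factor, stress and Hippo signals, and RBPJ carries the Notch signal.

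The 8 windows below are examples and do not stand for all HE-only regions. Each is the central 300 bases of an HE-only region on the mm10 plus strand of the reference genome (C57BL/6J, whereas the cells were 129/ola). The first 2 were among the 10 HE-only regions with most fragments, the next 5 lay near endothelial or Hippo pathway genes, and the last was the HE-only region positive in all 4 HE sorts. Capitals mark matches to the ETS word CAGGAA, the AP-1 word TGANTCA (with C or G in the middle), the GATA word AGATAA, the SOX words ACAAAGG and ACAATGG, the RUNX word TGTGGT and the TEAD word GGAATG, on either strand. Windows of some other HE-only regions held none of these words and are not shown. Among them were those nearest to Rhbdf2, Kit and Maml3, and that nearest to Tcea2, close to the endothelial factor gene Sox18.
Egfl7, chr2:26575991-26576290, between genes: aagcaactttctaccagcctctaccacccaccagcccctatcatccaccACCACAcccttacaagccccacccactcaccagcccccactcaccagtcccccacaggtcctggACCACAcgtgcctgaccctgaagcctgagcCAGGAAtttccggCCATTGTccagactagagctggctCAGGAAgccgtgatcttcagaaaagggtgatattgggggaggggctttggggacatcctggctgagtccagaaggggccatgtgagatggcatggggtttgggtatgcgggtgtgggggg
1700001O22Rik, chr2:30772931-30773230, between genes: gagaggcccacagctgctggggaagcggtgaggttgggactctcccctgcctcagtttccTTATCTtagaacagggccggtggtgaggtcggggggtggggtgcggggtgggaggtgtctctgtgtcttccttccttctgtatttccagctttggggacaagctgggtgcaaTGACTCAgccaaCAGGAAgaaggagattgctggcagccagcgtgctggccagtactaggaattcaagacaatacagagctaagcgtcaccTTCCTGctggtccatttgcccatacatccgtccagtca
Cdh5, chr8:104095655-104095954, intron: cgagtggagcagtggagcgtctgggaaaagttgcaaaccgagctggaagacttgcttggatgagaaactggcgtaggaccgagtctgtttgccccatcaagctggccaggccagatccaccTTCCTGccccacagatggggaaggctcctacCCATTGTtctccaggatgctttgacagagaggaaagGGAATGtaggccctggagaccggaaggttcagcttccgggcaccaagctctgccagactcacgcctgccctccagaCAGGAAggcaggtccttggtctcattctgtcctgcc
S1pr1, chr3:115709067-115709366, between genes: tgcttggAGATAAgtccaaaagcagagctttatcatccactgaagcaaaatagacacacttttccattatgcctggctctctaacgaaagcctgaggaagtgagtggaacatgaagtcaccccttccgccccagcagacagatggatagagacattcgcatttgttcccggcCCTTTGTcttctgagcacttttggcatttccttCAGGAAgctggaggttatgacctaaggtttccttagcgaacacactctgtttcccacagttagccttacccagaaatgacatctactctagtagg
Aplnr, chr2:85129519-85129818, between genes: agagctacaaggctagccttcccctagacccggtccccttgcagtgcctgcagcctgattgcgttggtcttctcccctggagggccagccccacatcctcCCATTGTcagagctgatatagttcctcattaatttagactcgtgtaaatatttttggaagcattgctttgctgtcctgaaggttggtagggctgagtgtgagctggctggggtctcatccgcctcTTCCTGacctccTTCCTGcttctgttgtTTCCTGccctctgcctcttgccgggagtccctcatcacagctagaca
Ets1, chr9:32674161-32674460, intron: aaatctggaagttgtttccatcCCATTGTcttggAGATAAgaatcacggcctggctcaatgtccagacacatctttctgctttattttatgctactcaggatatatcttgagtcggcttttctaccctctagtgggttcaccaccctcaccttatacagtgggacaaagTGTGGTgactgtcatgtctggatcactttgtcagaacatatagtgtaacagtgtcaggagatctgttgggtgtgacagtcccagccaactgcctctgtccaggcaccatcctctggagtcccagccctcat
Amotl1, chr9:14604305-14604604, intron: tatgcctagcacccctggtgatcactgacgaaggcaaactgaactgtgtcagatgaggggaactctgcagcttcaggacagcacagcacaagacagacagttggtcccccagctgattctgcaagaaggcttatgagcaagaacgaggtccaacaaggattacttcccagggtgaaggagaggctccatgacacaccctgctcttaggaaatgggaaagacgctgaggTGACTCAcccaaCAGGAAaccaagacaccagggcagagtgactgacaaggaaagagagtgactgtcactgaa
Nuak1, chr10:84447419-84447718, between genes: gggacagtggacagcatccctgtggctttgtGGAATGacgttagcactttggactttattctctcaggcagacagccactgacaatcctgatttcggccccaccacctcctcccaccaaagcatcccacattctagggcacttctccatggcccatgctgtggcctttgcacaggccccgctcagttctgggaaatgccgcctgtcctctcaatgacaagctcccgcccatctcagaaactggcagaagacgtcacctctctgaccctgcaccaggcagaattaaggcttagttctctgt

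The libraries differed in depth by replicate, which bears on every value below. Replicate 1 held 361181 unique fragments, from 4869 to 51146 in a library, and replicate 2 held 97305, from 654 to 31915. Each list names a fragment once, with no read count, so a number of fragments is not a number of cells or a level of YFP. Nothing in the labels says that the replicates came from separate transfections, so p-values measure only the spread between these samples. Gates of the same sort shared fragments: HE1 Negative and HE1 Medium of replicate 1 had 28868 in common, 69.8% of the smaller list. Per the study's methods, fragments were filtered on open chromatin of the matching stage. The sources used here do not say whether that had been done to these lists, and reporter activity at HE1 and HE2 alone and open chromatin at those stages alone then cannot be told apart.

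HE-only regions ranged from many-fragment regions to single overlaps. Their median width was 383 bp, and they held 18495 different positive fragments, 11116 at HE1 and 8478 at HE2, with a median of 3 per region at HE1 and 2 at HE2. A total of 1694 held 2 or more fragments at each stage and 250 held 5 or more at each, whereas 570 had exactly 1 at HE1 and exactly 1 at HE2. More HE1 than HE2 fragments were present in 1592 regions, fewer in 793 and as many in 981. Just outside the rule lay 1848 regions positive at HE1 and HE2 that had exactly 1 positive fragment at another stage, which was at HP in 1007, at HB in 498 and at ES in 343. The median sum of HE1 and HE2 fragments was 5 in these regions and 5 in the HE-only regions.

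The HE-only region with most fragments lay 4942 bp from the start site of Egfl7, which encodes a secreted protein of endothelial cells, and is the first sequence above. It held 18, 4, 23 and 6 fragments in the Negative, Low, Medium and High gates of HE1 in replicate 1, and 2, 10, 12 and 4 in those of HE2. In replicate 2 it held 1 fragment, in HE2 High, among the HE libraries, and 1 in HB Negative. The next in order were nearest to Cttnbp2nl (51 different positive fragments), Gm9917 (45), 1700001O22Rik (40), Rhbdf2 (38), Ppm1f (34), Stard4 (30), Rps6-ps4 (29), Ttc9 (28) and Septin9 (26). Of these 10 regions, those nearest to Egfl7, 1700001O22Rik and Septin9 were positive in replicate 2, with 1 fragment each. The names give the nearest start site only, at unlike distances. The Gm9917 region lay 123 bp away, within the 1500 bp that the study's methods assign to promoters. The regions nearest to Stard4, Rps6-ps4 and Ttc9 lay 79204, 169914 and 60167 bp away.

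The endothelial surface genes of the series were represented by regions with fewer fragments spread over the same libraries. The region in an intron of Cdh5, which encodes the adherens junction protein VE-cadherin, held 7, 1, 8 and 5 fragments in the Negative, Low, Medium and High gates of HE1 in replicate 1, and 3, 1, 7 and 3 in those of HE2. In replicate 2 the Cdh5 region held 1 fragment, in HP Negative. The region 5839 bp from the start of S1pr1, a receptor for sphingosine 1-phosphate, held 4, 4, 6 and 2 fragments in the HE1 gates of replicate 1, 0, 4, 2 and 2 in the HE2 gates, and 1 in HE1 Low of replicate 2. The region 6692 bp from Aplnr, the apelin receptor, held 3, 2, 2 and 5 fragments in the HE1 gates and 1, 5, 3 and 2 in the HE2 gates, all in replicate 1. These 3 regions were thus seen in most HE gates of replicate 1, and S1pr1 was the exception with a positive fragment in replicate 2.

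Named regions near transcription factor, signalling and matrix genes differed in which HE stage held more fragments. More different positive fragments were at HE1 than at HE2 in those near Tcf4 (14 and 11), Tead1 (9 and 2) and Maml3 (10 and 2). The Tead1 region also held 1 fragment in HE1 Low of replicate 2. A region in an intron of Ets1, an ETS factor of endothelium, held 1, 1, 1 and 2 fragments in the HE1 gates of replicate 1, and 0, 3, 5 and 4 in the HE2 gates, so that HE2 fragments were in the majority. A region in an intron of Amotl1, which encodes a partner of the Hippo effector YAP, held 0, 1, 1 and 1 fragments at HE1 and 0, 3, 2 and 2 at HE2 in replicate 1. In this Amotl1 region no Negative gate of any stage held a fragment. A region in an intron of Hspg2, the gene of the basement membrane proteoglycan perlecan, held 6, 2, 9 and 4 fragments at HE1 and 1, 5, 2 and 1 at HE2, again in replicate 1 alone.

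**Figure D1:**
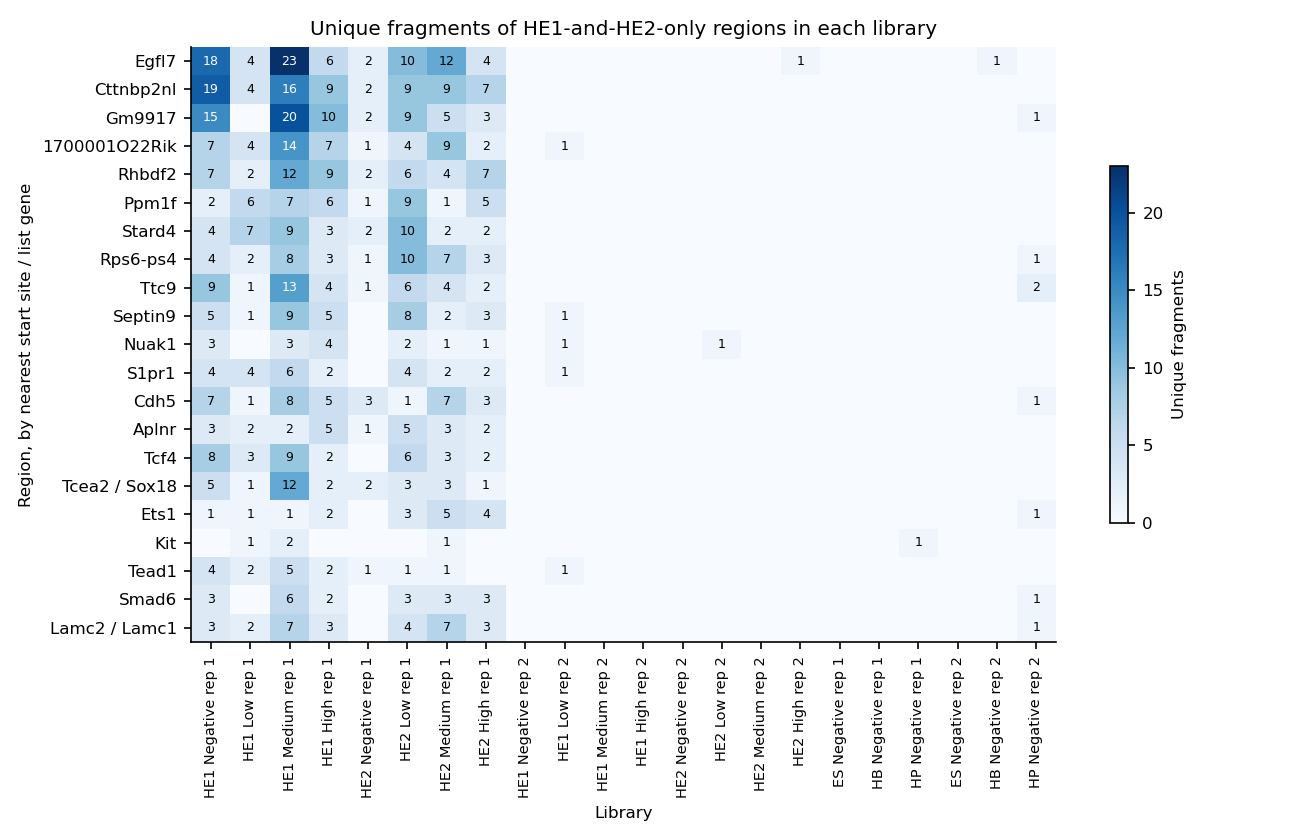
Number of unique fragments (colour and printed number, blank for 0) of 21 named HE-only regions (vertical axis, by nearest start site and, after the slash, the list gene where it is another gene) in the 16 HE libraries and the 6 Negative libraries of the other stages (horizontal axis). Counts reach 23 in HE1 Medium of replicate 1 for the Egfl7 region and are at most 1 in the HE libraries of replicate 2.

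Fragments of HE-only regions came mostly from replicate 1. Positive HE fragments lay in replicate 1 alone in 2974 regions (88.4%), in replicate 2 alone in 198 (5.88%) and in both replicates in 194 (5.76%). The only region positive in all 4 HE sorts lay 6901 bp from Nuak1, which encodes a kinase related to AMPK. It held 3 fragments in the Negative, 0 in the Low, 3 in the Medium and 4 in the High gate of HE1 in replicate 1, and 0, 2, 1 and 1 in the gates of HE2, and in replicate 2 it held 1 in HE1 Low and 1 in HE2 Low. An identical fragment, with the same start and end, was present at HE1 and HE2 in 990 HE-only regions (29.4%), against 41.3% of all regions positive at both stages. The share differed by replicate of origin: 753 of the 2974 regions of replicate 1 and 189 of the 198 regions of replicate 2 had such a fragment. In the other 2376 HE-only regions, activity at HE1 and HE2 was read from different fragments.

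The Negative gates were not read by the rule, but they shared fragments with the positive gates that were, so their values are not independent of the choice. In replicate 1 the share of Negative fragments that lay in HE-only regions was 10.7% at HE1 and 10.0% at HE2, against 0.638% at ES, 0.748% at HB and 2.49% at HP. In replicate 2 it was 1.91% at HE1 and 1.87% at HE2, against 1.07% at ES, 1.83% at HB and 1.75% at HP. Both HE libraries lay above the other 3 in each replicate, by far in replicate 1 and by less than the width of their intervals from HB and HP in replicate 2. The mean was 6.13% ± 4.90 (SD, n = 4) for HE and 1.42% ± 0.724 (SD, n = 6) for the other stages, 4.71 percentage points higher (p = 0.0476 by exact permutation of the 4 HE and 6 other labels over 210 arrangements, two-sided), which is no independent test for the same reason. With labels exchanged within replicates (the replicate block) the exact permutation p was 0.02, the smallest that the 100 arrangements can give. Within replicate 1 the difference was 9.08 points and within replicate 2 it was 0.343 points, each with an exact permutation p of 0.2, the smallest that 2 against 3 libraries allow. With the regions chosen anew after each sort was left out, the difference was 0.903 points without HE1 of replicate 1 and 0.778 points without HE2 of replicate 1. It had an exact permutation p below 0.05 without ES, HB or HP of replicate 2 and above it without any other sort.

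Part of that difference came from fragments also sorted as positive. Of the 4424 Negative fragments of HE1 in replicate 1 that lay in HE-only regions, 3390 (76.6%) were also in the HE1 Medium library of replicate 1. Without Negative fragments identical to a positive HE fragment, the difference was 3.82 points (exact permutation p = 0.190, 0.16 with the replicate block). In replicate 1 the shares were then 8.69% at HE1 and 9.80% at HE2, against 0.618% at ES, 0.790% at HB and 2.46% at HP. In replicate 2 they were 0.972% at HE1 and 0.705% at HE2, above ES (0.536%) but below HB (1.28%) and HP (1.61%). The HE libraries thus no longer lay above all other stages in replicate 2. Region by region, 2418 HE-only regions (71.8%) held a Negative fragment at HE1 or HE2, against 28% of the regions positive at any stage, 82.9% of all regions positive at HE1 and HE2 and 83.9% of those positive at HE1, HE2 and HP only. A Negative fragment at ES, HB or HP was present in 532 HE-only regions (15.8%), against 23.1%, 58.9% and 45.3% of these groups in turn, 2.98% of the regions positive at HE1 only and 11.3% of those positive at HE2 only. The order thus depends on the group compared, and the groups differ in fragments per region, with a median of 5 in HE-only regions, 1 in regions positive at any stage, at HE1 only or at HE2 only, 11 in those positive at HE1 and HE2 and 10 in those also positive at HP. A total of 840 HE-only regions (25.0%) had no fragment in any Negative gate.

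**Figure D2:**
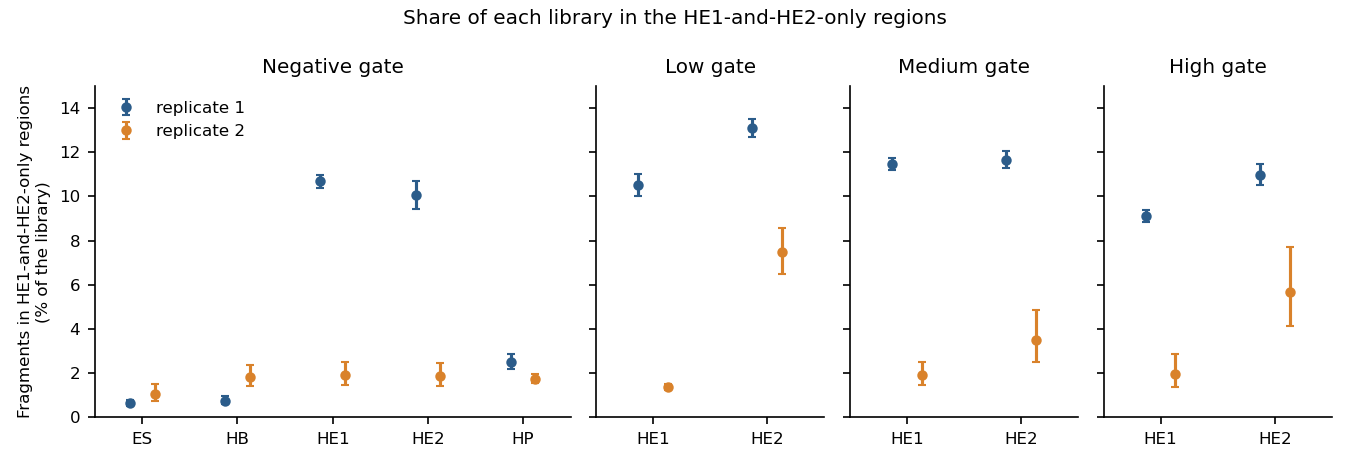
Percent of the unique fragments of each library that lay in HE-only regions (vertical axis), by stage (horizontal axis), gate (panels) and replicate (colour), with 95% Wilson intervals. Positive gates are drawn for HE1 and HE2 only, since the rule sets the others to 0, and the 8 HE libraries of replicate 1 lie between 9.10% and 13.1%.

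Regions chosen in a single replicate were also read in the other. Applied to replicate 1 alone, the rule gave 3341 regions, and in replicate 2 these took up 0.756% of positive fragments at HE1 (263 of 34809) and 1.35% at HE2 (47 of 3471), against 0.843% at ES, 1.12% at HB and 1.44% at HP. Applied to replicate 2 alone, it gave 257 regions, which in replicate 1 took up 0.411% at HE1 and 0.427% at HE2, against 0.483% at ES, 0.585% at HB and 0.502% at HP. In replicate 1 both HE values lay below the other 3, and in replicate 2 the HE values overlapped the others. The difference of the means, HE minus the other stages, was -0.0924 percentage points (exact permutation p = 0.743, 0.5 with the replicate block).

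Chosen regions were seen again at HE and at other stages. Of the 3341 regions chosen on replicate 1, positive fragments were present in replicate 2 in 179 at HE1, 124 at HB, 71 at ES, 65 at HP and 39 at HE2. As a share of all positive regions of each sort, these were 0.784% at HE1, 1.13% at HB, 0.897% at ES, 1.49% at HP and 1.27% at HE2. Of the 257 regions chosen on replicate 2, positive fragments were present in replicate 1 in 47 at HB (18.3%), 43 at HE2 (16.7%), 42 at HE1 (16.3%), 41 at HP and 34 at ES (13.2%). Their shares of the positive regions of the sort were 0.379% at HB, 0.245% at HE2, 0.218% at HE1, 0.308% at HP and 0.331% at ES. The sorts themselves differed in size, with 22833 positive regions at HE1 and 3078 at HE2 in replicate 2, and 19241 and 17562 in replicate 1. In the more deeply sampled replicate 1, the 95% Wilson interval of the fragment share was 0.374 to 0.452% at HE1 and 0.381 to 0.478% at HE2, both below that of HB, 0.514 to 0.666%. Both overlapped those of ES, 0.408 to 0.572%, and HP, 0.437 to 0.576%. Fragments of a region are not independent, and the intervals cover counting error only.

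**Figure D3:**
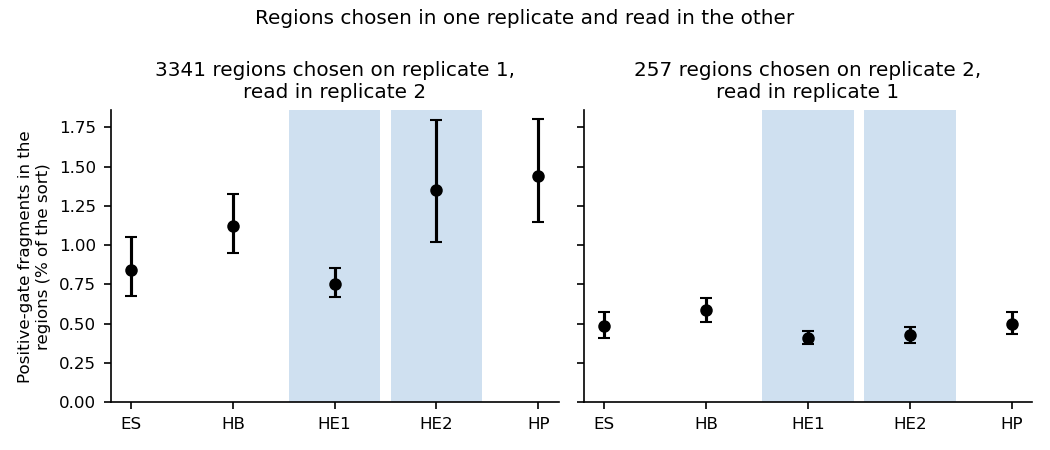
Percent of positive-gate fragments of each sort (vertical axis) that lay in regions chosen by the HE-only rule in the other replicate, by stage (horizontal axis), with 95% Wilson intervals and HE1 and HE2 shaded. In the left panel HE1 is lowest (0.756%) and HP highest (1.44%), and in the right panel both HE values lie below the other 3.

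HE-only regions were not concentrated in the brightest gate. In replicate 1 they held 10.5%, 11.5% and 9.10% of the Low, Medium and High fragments at HE1, and 13.1%, 11.7% and 11.0% at HE2. In replicate 2 they held 1.38%, 1.93% and 1.98% at HE1, and 7.47%, 3.51% and 5.66% at HE2. The High share minus the Low share was -1.18 percentage points ± 1.22 (SD, n = 4 sorts), above 0 in 1 of 4 sorts (exact permutation test that changes signs, p = 0.25). With 4 sorts the smallest p of that test is 0.125, so that no difference over the 4 HE sorts described below can pass 0.05. The 4 sorts are also not 4 independent samples, since the rule asks for both HE stages. In replicate 1, 3125 HE-only regions were positive at HE1 and 3165 at HE2, mostly the same regions. Counts of sorts, SDs and p-values over the 4 sorts below are to be read with this limit.

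The position and composition of the fragments were read in each HE sort against the other positive fragments of the same sort. The median distance to the nearest start site was 25868 bp in HE-only regions and 16732 bp elsewhere for HE1 of replicate 1, 27153 and 16962 bp for HE2 of replicate 1, 26563 and 24620 bp for HE1 of replicate 2, and 22632 and 21538 bp for HE2 of replicate 2. Fragments of HE-only regions thus lay farther away in 4 of 4 sorts, by 5591 bp on average (exact permutation p = 0.125). With regions chosen anew, the difference was -2134 bp without HE2 of replicate 1 and -4804 bp without replicate 1. Exons held 2.70% and 2.60% of them at HE1 and HE2 of replicate 1, against 6.67% and 6.64% elsewhere, and the exon share was also lower in both sorts of replicate 2. Introns held more of them in 3 of 4 sorts, by 3.40 percentage points on average (exact permutation p = 0.25), and with regions chosen anew without HE2 of replicate 1 the difference was -1.54 points. When fragments of regions positive at the same HE stage only were compared, the start site distance of HE-only fragments was larger in 2 of 4 sorts. Their intron share was then higher in 2 of 4 sorts and their exon share in 1 of 4. Placed by its centre, 49.0% of HE-only regions lay in an intron, 47.8% between genes and 3.24% in an exon.

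GC content separated the groups in replicate 1 alone. It was 50.8% in fragments of HE-only regions and 55.7% elsewhere at HE1 of replicate 1, and 50.6% and 55.6% at HE2 of replicate 1. In replicate 2 it was 49.8% and 48.9% at HE1, and 49.0% and 50.6% at HE2, with opposite signs. Fragment length was 163 and 172 bp at HE1 and 167 and 175 bp at HE2 in replicate 1, and in replicate 2 it was 284 and 308 bp at HE1 but 279 and 230 bp at HE2. Neither difference passed the test (exact permutation p = 0.25 for GC content and 1 for length). Beside fragments of regions positive at the same HE stage only, GC content was higher in HE-only fragments in 4 of 4 sorts, by 1.07 percentage points on average (exact permutation p = 0.125).

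ETS words were the most frequent of the 12 motifs searched in HE-only fragments. HE-only fragments held 3.45 ETS matches per kb at HE1 and 3.51 at HE2 in replicate 1, against 2.34 and 2.44 in other positive fragments, and 1.59 at HE1 and 1.57 at HE2 in replicate 2, against 1.35 and 1.52. The rate was higher in HE-only fragments in 4 of 4 sorts and in each of the 12 positive HE libraries, by 0.617 matches per kb on average (exact permutation p = 0.125, adjusted 0.3 over the 12 motifs). With regions chosen anew it was 0.0483 per kb without replicate 1 and 1.13 per kb without replicate 2. Placed over regions, a 200 bp window at the centre held an ETS word in 48.1% of HE-only regions and in 29.4% of the regions positive at any stage. By replicate of origin the shares were 50.0% of the HE-only regions of replicate 1, where 36.8% of all positive regions seen in replicate 1 alone held the word, and 26.8% of those of replicate 2, against 23.2%.

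GATA and RBPJ words were also higher than in other positive fragments in 4 of 4 sorts. GATA matches per kb were 0.784 and 0.834 at HE1 and HE2 of replicate 1, against 0.617 and 0.653 elsewhere, and 0.687 and 0.720 in replicate 2, against 0.541 and 0.534. Their difference, 0.170 matches per kb ± 0.0178 (SD, n = 4 sorts), had the same sign and a similar size in both replicates (exact permutation p = 0.125), and it was 0.0185 per kb when 2 or more different fragments were asked for at each HE stage. RBPJ matches were higher by 0.164 per kb on average. Compared with fragments of regions positive at the same HE stage only, ETS words were higher in 4 of 4 sorts, and GATA and RBPJ words in 3 of 4. At HE1 of replicate 1 those fragments held more, with 0.822 GATA and 1.34 RBPJ matches per kb, against 0.784 and 1.29. OCT matches (the word ATGCAAAT) were lower than in other positive fragments in 4 of 4 sorts, at 0.0341 and 0.0313 per kb in replicate 1 against 0.0466 and 0.0469. In replicate 2 they were 0.0347 and 0.0294 against 0.0476 and 0.0445, from 507 and 244 HE-only fragments.

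AP-1, SOX and TEAD words were higher in HE-only fragments in replicate 1, and replicate 2 did not show the same. AP-1 matches per kb were 1.12 at HE1 and 1.08 at HE2 of replicate 1, against 0.586 and 0.572 elsewhere, whereas in replicate 2 they were 0.326 against 0.199 at HE1 and 0.279 against 0.317 at HE2. SOX matches were 0.857 and 0.811 in replicate 1, against 0.463 and 0.459, and in replicate 2 they were 0.528 against 0.379 at HE1 and 0.323 against 0.348 at HE2. TEAD matches were 0.964 and 0.995 in replicate 1, against 0.707 and 0.691, but 0.472 and 0.471 in replicate 2, against 0.631 and 0.679. The TEAD difference thus had opposite signs in the replicates, and with regions chosen anew without replicate 1 the AP-1 difference was -0.0510 per kb. Set against fragments of regions positive at the same HE stage only, SOX words were higher in 4 of 4 sorts, AP-1 words in 3 and TEAD words in 1. In 200 bp windows the AP-1 word stood in 18.5% of HE-only regions and 7.33% of positive regions, the SOX words in 13.6% and 8.68%, and the TEAD word in 17.0% and 13.2%. These groups differ in replicate of origin. Among regions seen in replicate 1 alone, the AP-1 word stood in 19.4% of HE-only and 10.9% of positive regions, the SOX words in 14.1% and 9.99%, and the TEAD word in 17.6% and 14.5%. Among regions seen in replicate 2 alone, the AP-1 word stood in 5.05% and 4.46%, the SOX words in 8.08% and 7.68%, and the TEAD word in 11.1% and 12.2%. ETS and AP-1 words occurred together in 276 (9.28%) of the HE-only regions of replicate 1, in 7.50% of the replicate 1 regions positive at HE1, HE2 and HP only, in 4.27% of all positive regions seen in replicate 1 alone and in 3 of the 198 HE-only regions of replicate 2 (1.52%). In the HE-only regions of replicate 1 the single shares were 50.0% for ETS and 19.4% for AP-1. Whether the words occurred together more often than their single shares alone would give was not tested.

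RUNX words differed in sign between the replicates, and CTCF words were lower in replicate 1. RUNX matches per kb were 0.852 and 0.859 at HE1 and HE2 of replicate 1, against 0.867 and 0.933 elsewhere, and 0.944 and 0.882 in replicate 2, against 0.798 and 0.870. CTCF matches (consensus of the insulator protein CTCF) were 0.0681 and 0.0495 in replicate 1, against 0.292 and 0.285, and the sign differed between the sorts of replicate 2. Relative to fragments of regions positive at the same HE stage only, RUNX and CTCF matches were each higher in 2 of 4 sorts. A match is a string in the reference and not evidence that a factor bound there.

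HE-only regions were next set against regions that were also positive at HP. Fragments of the 2548 regions positive at HE1, HE2 and HP only held 1.44 and 1.42 RUNX matches per kb at HE1 and HE2 of replicate 1, against 0.852 and 0.859 in HE-only fragments, but 0.755 and 0.824 in replicate 2, against 0.944 and 0.882. Over all regions the RUNX word stood in 14.8% of HE-only windows and 23.2% of windows that were also positive at HP. ETS, PU.1 and EBOX matches were lower, and SOX and RBPJ matches higher, in HE-only fragments in 4 of 4 sorts (exact permutation p = 0.125 for each, adjusted 0.3). The mean SOX difference of 0.168 per kb came mostly from replicate 1, with 0.314 at HE1 and 0.262 at HE2, against 0.0149 and 0.0811 in replicate 2. The mean ETS difference of -0.355 per kb came mostly from replicate 2, with -0.832 at HE1 and -0.463 at HE2, where only 287 and 104 fragments of the regions positive at HP were present, against -0.0920 and -0.0333 in replicate 1. GATA matches were lower in HE-only fragments in replicate 1, at 0.784 and 0.834 per kb against 1.07 at HE1 and 1.07 at HE2, and slightly higher in replicate 2, by 0.0179 and 0.0418. The GATA word stood in 16.2% of HE-only windows and 19.6% of windows also positive at HP. The intron share of HE-only fragments was lower in 4 of 4 sorts, with a difference of -8.49 percentage points (exact permutation p = 0.125). The HE-only regions held fewer fragments than these regions, with a median of 5 against 10, and the part of this difference in the comparison was not tested.

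**Figure D4:**
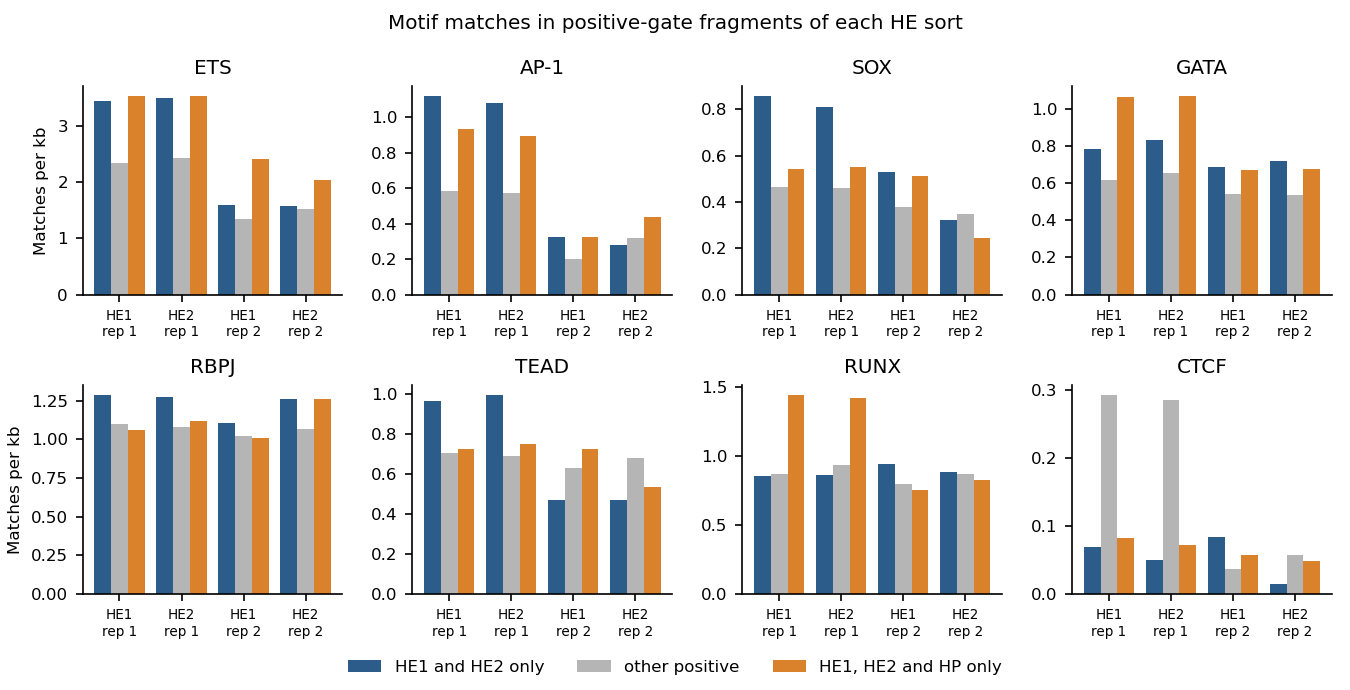
Motif matches per kb of positive-gate fragments (vertical axis, starting at 0, scaled per panel) in the 4 HE sorts (horizontal axis) for HE-only regions, other positive regions and regions positive at HE1, HE2 and HP only (colours). ETS, GATA and RBPJ bars of HE-only regions exceed those of other positive regions in every sort, TEAD bars do so in replicate 1 alone, and RUNX bars of the regions positive at HP are the highest in replicate 1.

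HE-only regions lay inside or within 25000 bp of 3413 genes, of which 133 had 3 or more and 9 had 5 or more. Btbd9 had 6 of 30 positive regions, and Mpzl1 (a cell surface glycoprotein, 5 of 13), Ets1 (5 of 16), Abtb2 (5 of 17), Daam1 (an actin-organising formin, 5 of 17), Tcf4 (a basic helix-loop-helix factor, 5 of 18), Gmds (5 of 22), Ptprg (5 of 28) and Nav2 (5 of 39) had 5 each. Mdfic had 4 of 7. Long genes offer more regions, so that the counts are given beside the number of positive regions of the same gene.

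The share of positive regions that were HE-only was then counted near listed genes, as a description with no test. The share of all positive regions, 5.34%, pools unlike replicates. Of the 25003 positive regions seen in replicate 1 alone, 2974 were HE-only, and of the 32935 seen in replicate 2 alone, 198 were. List shares were not split by replicate of origin, so the part of replicate in their distance from 5.34% was not tested. Near 26 endothelial surface and junction genes, 19 of 174 positive regions were HE-only (10.9%, 95% Wilson interval 7.10 to 16.4), against 5.34% of all positive regions. They fell to 14 of the genes, among them Kdr (the VEGF receptor FLK1, 3 of 9), Tek (the angiopoietin receptor TIE2, 2 of 7), S1pr1 (2 of 5), Aplnr (2 of 7), Cldn5 (a tight junction claudin, 1 of 5) and Cdh5 (1 of 7). The other 12 genes had none, including Pecam1 (0 of 15), Flt1 (0 of 12), Ephb4 (0 of 12), Icam2 (0 of 5) and Tie1 (0 of 4). Near 25 endothelial and hemogenic transcription factor genes the count was 21 of 186 (11.3%, 7.50 to 16.6), from Ets1 (5 of 16), Tcf4 (5 of 18), Mecom (4 of 16), Foxo1 (2 of 8), Meis1 (2 of 21), Elk3 (1 of 7), Sox18 (1 of 7) and Fli1 (1 of 13). The other 17 genes had none, including Lyl1 (0 of 14), Tal1 (0 of 8), Erg (0 of 7), Gata2 (0 of 5), Sox7 (0 of 3), Sox17 (0 of 1) and Lmo2 (0 of 1).

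Genes of the vessel wall matrix and of Hippo signalling were counted in the same way. Near extracellular matrix and adhesion genes, 18 of 177 positive regions were HE-only (10.2%, 6.53 to 15.5), among them Lamc1 (a laminin chain, 3 of 4), Itgav (an integrin chain, 2 of 7), Hspg2 (2 of 19), and Col4a1 and Col4a2, neighbouring collagen IV genes that can share regions. Vcl (0 of 12), Sparc (0 of 10), Nid1 (0 of 7), Fn1 (0 of 5), Lama4 (0 of 4), Tln1 (0 of 4) and Flna (0 of 2) had none. Near Hippo, TEAD and AP-1 genes the count was 13 of 154 (8.44%, 5.00 to 13.9), from Amotl1 (3 of 6), the kinase gene Lats2 (3 of 7), the YAP homologue Wwtr1 (2 of 8), Ccn2 (1 of 3), Tead4, Maff, Fos and Tead1, whereas Fosb (0 of 11), Junb (0 of 10), Yap1 (0 of 8) and others had none. Near BMP and TGF-beta pathway genes it was 8 of 128 (6.25%, 3.20 to 11.8), and near Notch pathway genes 5 of 147 (3.40%, 1.46 to 7.71), all of which lay near the coactivator genes Maml1, Maml2 and Maml3.

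Near 22 blood factor and surface genes, which include Runx1, Gfi1, Spi1 and Itga2b (CD41), 1 of 160 positive regions was HE-only (0.625%, 0.110 to 3.45), and 13 of the 160 (8.13%) were positive at HE1, HE2 and HP only. Of all positive regions 4.04% were of that kind, and near endothelial surface genes, endothelial factor genes and BMP and TGF-beta genes the shares were 7.47%, 6.99% and 7.81%. The single region lay in an intron of Kit, the stem cell factor receptor, and held 1 fragment in HE1 Low, 2 in HE1 Medium, 1 in HE2 Medium and 1 in HP Negative, all in replicate 1. Near pluripotency genes the count was 1 of 65 (1.54%, 0.272 to 8.21), at Lin28a, and near neuronal genes it was 7 of 234 (2.99%, 1.46 to 6.04). Regions near a gene are not shown to act on it, regions of 1 gene are not independent, and the intervals cover counting error only.

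**Figure D5:**
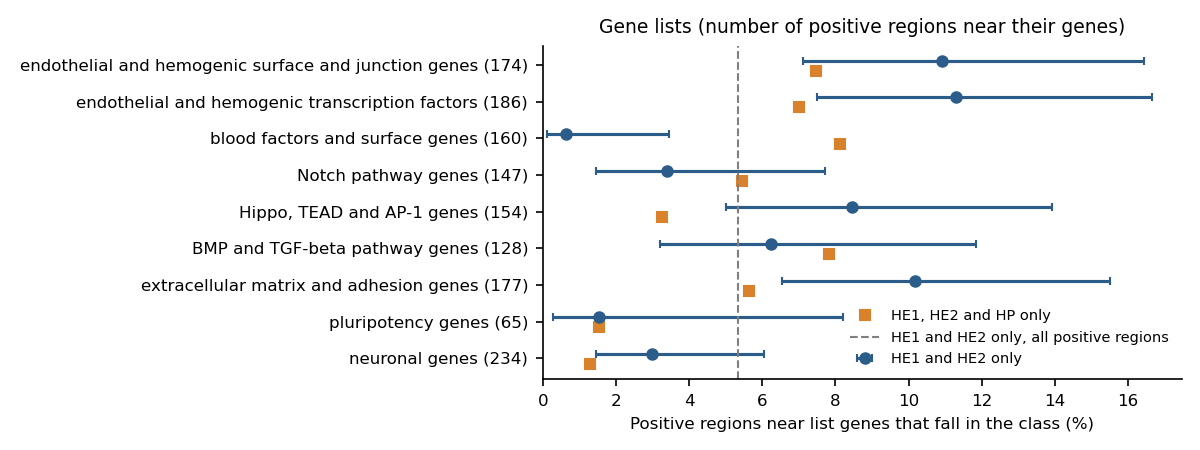
Percent of the positive regions inside or within 25000 bp of the genes of each list (vertical axis, number of regions in brackets) that were HE-only (circles, 95% Wilson intervals) or positive at HE1, HE2 and HP only (squares). The dashed line is the HE-only share of all positive regions with replicates pooled, 5.34%. The circle of the blood list lies at 0.625% and its square at 8.13%.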

How the data were processed

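Per the labels and the study's methods, reads of the recovered inserts were trimmed with Trim Galore, aligned to mm10 with Bowtie2 and turned into fragments with SAMtools and bedtools, and HOMER was used for annotation, with versions not given in the sources used. The authors deposited the coordinates (start and end in bp) of each unique fragment, without read counts or molecular identifiers, so the Wilson intervals (95%) cover counting error only. Removal of a background library and filters on open chromatin and on start sites are described in the methods, and which had been applied is not stated.

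Regions, shares, feature values and tests were computed in Python 3.11.15 with numpy 2.4.6, scipy 1.17.1 and pandas 2.3.3, and the steps were tested on simulated data. Libraries were grouped by title. Sequence, start sites, exons and introns came from the GRCm38 assembly and 33262 curated RefSeq transcripts, and the 23 fragments on scaffolds were left out there. Motifs were searched on both strands: AP-1 as TGANTCA with C or G in the middle, RUNX as TGTGGT, PU.1 as GAGGAAGT, ETS as CAGGAA, the word AGATAA for GATA factors, TEAD as GGAATG, SOX as ACAAAGG or ACAATGG, OCT as ATGCAAAT, EBOX as CAGCTG, CEBP as TTGCGCAA, RBPJ as TGGGAA and CTCF by its consensus. The ETS and PU.1 words share a core and cannot match at the same bases of a strand.

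Differences between HE and other sorts were tested by exact permutation of labels, and differences within HE sorts by exact changes of sign, all two-sided, with Benjamini-Hochberg adjustment over the 12 motifs. Replicate numbers mark sorts of the same experiment only as far as the titles go, so the test with labels exchanged within replicates is given beside the other. Named regions were the 10 with most different HE fragments, those positive in all 4 HE sorts, and up to 3 near each of 9 gene lists. Of the 24 listed Hippo, TEAD and AP-1 names, 22 were in the annotation. The regions and lists were chosen with earlier results of these data known.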

Additional observations from a re-analysis of the deposited data

Results flagged for a closer look

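Over 23 sets of sort or library values, each searched for a value far from the rest, 2 held such a value, and about 1 in 20 sets would by the rule used. Both came from HE1 of replicate 2. The share of repeat-masked bases was lower in HE-only fragments than in other positive fragments of that sort (difference of -4.45 percentage points), whereas it was higher in the other 3 HE sorts, by 1.18 to 1.80 points. RBPJ matches were higher in HE-only fragments by 0.0791 per kb in that sort and by 0.185 to 0.198 per kb in the other 3.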

How the results depend on the processing

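In every alternative that leaves out libraries the regions were chosen anew. The number of HE-only regions was 258 to 3345 when a replicate was left out and 1694 with 2 or more different fragments asked for at each HE stage. Those with an identical fragment at both stages numbered 233 to 868 and 595 in these alternatives, and 649 without the HE1 Medium library of replicate 1. The Negative gate difference, which is not independent of the choice, stayed above 0 in each of 19 alternatives and lost its call in 12. It was 0.778 to 10.3 percentage points when a sort or replicate was left out, 3.11 with 2 or more fragments, 3.82 without Negative fragments identical to positive HE fragments and 4.17 without those identical to any positive fragment, an alternative chosen after seeing the data (exact permutation p from 0.0159 to 0.248 over all alternatives). The replicate block, in which labels move within a replicate, gave p = 0.02 there and 0.5 for regions read in the other replicate, by exact permutation, and changed no call. The latter difference stayed below 0 in 5 of 5 alternatives.

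When a sort or replicate was left out, the difference from other positive fragments ranged from -16.7 to 15.5 bp for length, -4.85 to 0.908 percentage points for GC content, -4804 to 8739 bp for start site distance, -1.54 to 5.94 points for intron share, and per kb from -0.124 to 0.501 for AP-1, -0.135 to 0.388 for TEAD, -0.0123 to 0.490 for RUNX and -0.0569 to 0.0921 for PU.1. ETS, GATA, SOX and RBPJ differences kept their sign in all 13 alternatives run for each. The motifs higher in every sort numbered 3, and 1 to 7 in these alternatives. With 2 or more fragments, the length difference was -7.60 bp and the RUNX difference -0.115 per kb. With the 12 positive libraries as samples, which share fragments within a sort, the differences were -0.418 bp for length, -3.05 points for GC content (permutation p = 0.00635) and 6137 bp for start site distance (permutation p = 0.0112), and 1 motif, ETS, was higher in all. The causes of these changes were not tested. The smallest library, HE2 High of replicate 2, held 654 fragments.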
